A study of Bombyx mori with 2 samples.

Results

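The deposited variant tables of the silkworm *Bombyx mori* list 1481 short insertions and deletions (indels) in transcribed genes, beside 45520 single-base sites (SNP sites), which is 30.7 SNP sites for every indel. The indels are all rows with values in the authors' indel table, counted once per scaffold, position, reference allele and alternative allele. The table holds 1483 rows, because 2 of the sites are listed under 2 genes each. RNA came from the epidermis of 2 strains at 6 hours of molting in instar 4. One is 932VR, a plain wildtype strain, and the other is q-lp, a purple quail-like pigment mutant that arose in 932VR and was kept by inbreeding. Each strain gave 1 library from a pool of 3 silkworms, and with 1 library per strain nothing here has a replicate. The deposited columns name no library, and every site is taken to join the reads of both. Whether an allele belongs to 932VR or to q-lp therefore cannot be told apart, and no difference between the strains is tested here. A site at which both alleles were read may, for example, hold 1 allele per strain or both alleles within a strain, and these cannot be told apart either. Whether each such site truly holds 2 alleles was not checked. The tables hold no expression values, so the tissue could not be checked against its markers. Of the 208 cuticle protein genes that the paper lists, 80 hold at least 1 variant site. A variant site was listed in 6641 genes in all, so this count is no check of the tissue.

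An indel adds bases to the reference sequence or removes them. In a coding exon, a length that is a multiple of 3 bp adds or removes whole codons, and any other length shifts the reading frame behind it. Tandem repeats, in which a short unit stands several times in a row, are known for gaining and losing copies, and many insect cuticle proteins carry repeated glycine-rich or collagen-like stretches. The reference here is the SilkDB genome on Bm_scaf scaffolds, so a site describes how the reads differ from that genome. The tables give the start and the end of each gene, but neither strand nor exons, so it is not stated whether a site is in a coding exon, a UTR or an intron.

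A few alleles show what these sites look like. They are printed as the table spells them on the scaffold, 5′ to 3′, with the inserted or deleted bases in capitals. The sources do not say whether positions count from 0 or from 1, so each position may be off by 1. The first pair lies in the glycine-rich cuticle gene BGIBMGA002385 (Bm_scaf14, position 5108082) and the second in the cuticle protein gene BGIBMGA008262 (Bm_scaf94, position 100882); both add a further copy of a unit that the reference already repeats.
BGIBMGA002385 reference: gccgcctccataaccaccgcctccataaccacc
BGIBMGA002385 alternative: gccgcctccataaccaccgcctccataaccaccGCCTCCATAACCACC
BGIBMGA008262 reference: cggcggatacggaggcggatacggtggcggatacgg
BGIBMGA008262 alternative: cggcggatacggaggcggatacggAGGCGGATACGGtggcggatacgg
In BGIBMGA002385 all 7 reads carried the copy of 15 bp, and in BGIBMGA008262 all 63 reads carried the copy of 12 bp. The next 3 pairs lie in BGIBMGA000388, an insect cuticle protein gene with a collagen triple helix repeat, on Bm_scaf18 at positions 1415758, 1415911 and 1416697. They are shown because each changes the gene by 9 bp and each was read in both forms.
BGIBMGA000388 site at 1415758, reference: caccagg
BGIBMGA000388 site at 1415758, alternative: caccaggACAACCAGG
BGIBMGA000388 site at 1415911, reference: aGCCAGGAAC
BGIBMGA000388 site at 1415911, alternative: a
BGIBMGA000388 site at 1416697, reference: caggacaacTAGGACAAC
BGIBMGA000388 site at 1416697, alternative: caggacaac
The inserted unit at 1415758 and the deleted unit at 1416697 match at 8 of 9 bases when one is rotated against the other, and the unit at 1415911 matches them at 6 and 5 of 9 bases.

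Insertions outnumbered deletions among the 1468 indels with 1 alternative allele, with 891 insertions and 577 deletions, a ratio of 1.54. The excess lay in the shortest class. Single bases were inserted at 675 sites and deleted at 343, while indels over 1 bp numbered 216 insertions and 234 deletions. Indels of 1 bp thus made up 1018 of the 1468 sites. The longest insertion and the longest deletion each measured 30 bp. The other 13 sites have several alternative alleles and are left out of the counts by length and direction. At one of them, in BGIBMGA006589 (Bm_scaf10, position 5053797), 78 of 81 reads held 1 or more further A bases behind a run of A.

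**Figure D1:**
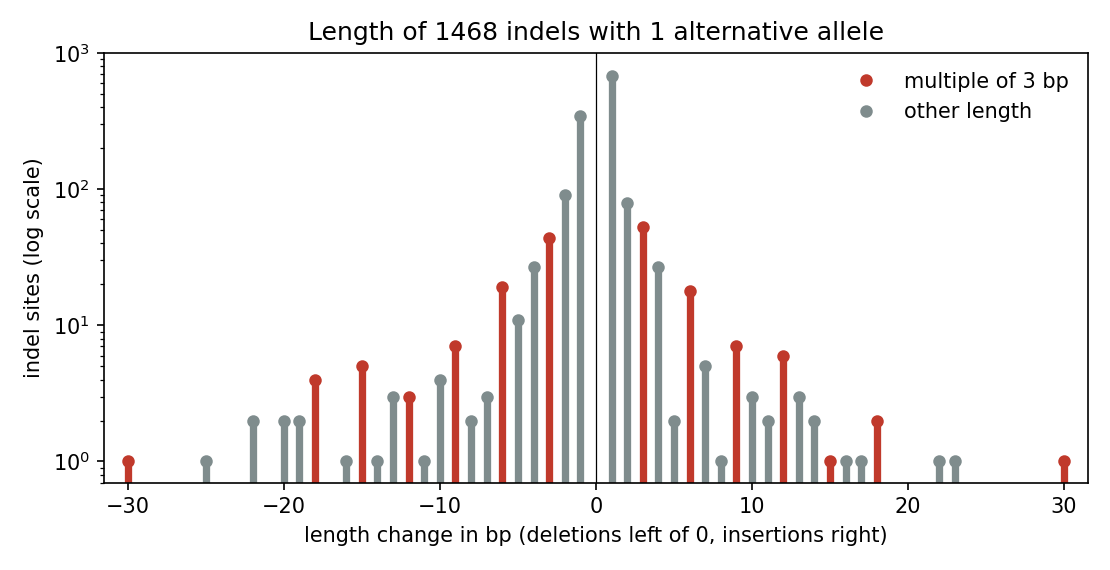
Number of indel sites (log scale) by the change in length in bp, deletions left of 0 and insertions right of it, with multiples of 3 bp in red. The highest points are the 675 insertions and 343 deletions of 1 bp, and multiples of 3 bp stand above the lengths on either side of them at 6 and 9 bp in both directions, among others.

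A length that is a multiple of 3 was found at 171 of the 1468 sites, or 11.6% (95% Wilson interval 10.1 to 13.4). Without the single bases the share was 171 of 450, or 38.0% (33.6 to 42.6). It was 40.7% (34.4 to 47.4) for 216 insertions over 1 bp and 35.5% (29.6 to 41.8) for 234 deletions over 1 bp, and these intervals overlap. By single lengths, 53 insertions and 44 deletions of 3 bp stood beside 27 insertions and 27 deletions of 4 bp, and 18 insertions and 19 deletions of 6 bp beside 2 and 11 of 5 bp. At 2 bp the counts were 79 insertions and 91 deletions, above those at 3 bp.

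Most single-base insertions stood next to a like base, which may itself be a lone base. How often an added base would do so by chance was not worked out. Of the 1018 single-base indels, 351 changed an A, 336 a T, 181 a G and 150 a C, so that A and T made up 67.5%. For 489 of the 675 insertions the added base stood next to a like base in the reference, as in BGIBMGA000388 at position 1418325, where gc became gcC. The other 186, or 27.6%, added a base beside no like base, as in the larval cuticle protein gene LCP-12 (BGIBMGA002548), where t became tG. The added base was a G or a C at 46.8% of these 186 sites and at 23.1% of the 489. Among the 343 deletions, 155 removed a lone base. Long runs were rare, as 80 of the 1018 sites lay in a run of 5 bp or more in the reference, 43 of them insertions and 37 deletions, and the longest run measured 11 bp.

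Longer indels were sorted by how far they repeat the bases beside them. Of the 216 insertions over 1 bp, 83 (38.4%) added a unit of which the reference holds at least 1 full copy at the site. Another 87 (40.3%) repeated only part of the unit beside them, which may be as little as a single base. The remaining 46 (21.3%) showed no exact repeat over the whole spelled allele. This last class takes in copies with a mismatch beside them, such as the insertion in BGIBMGA008262. Of the 234 deletions over 1 bp, the numbers were 100 (42.7%), 87 (37.2%) and 47 (20.1%). The split was thus close to the same for both directions.

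Indels were read less deeply than SNP sites. The coverage of an indel, that is, the reads of both libraries over the site, ranged from 2 to 94 with a median of 4, against 2 to 100 with a median of 7 for SNP sites. The sources do not say whether sites with more than 100 reads were left out. Exactly 2 reads covered 422 indels (28.5%) and 7511 SNP sites (16.5%), and 2 alternative reads were also the fewest at any listed site. At least 10 reads covered 346 indels (23.4%) and 17828 SNP sites (39.2%). Indels made up 5.32% (4.85 to 5.84) of all sites with a coverage of 2, 3.23% (2.92 to 3.58) at 5 to 9 reads, 2.26% (1.97 to 2.60) at 10 to 19 reads and 1.37% (0.986 to 1.90) at 50 to 100 reads. The share fell from each class of coverage to the next, and no test of this trend was made. The median coverage was 4 reads for single-base indels and for longer ones alike. These intervals and those below cover counting error only, since reads may be copies of one molecule and sites of one gene share their reads.

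**Figure D2:**
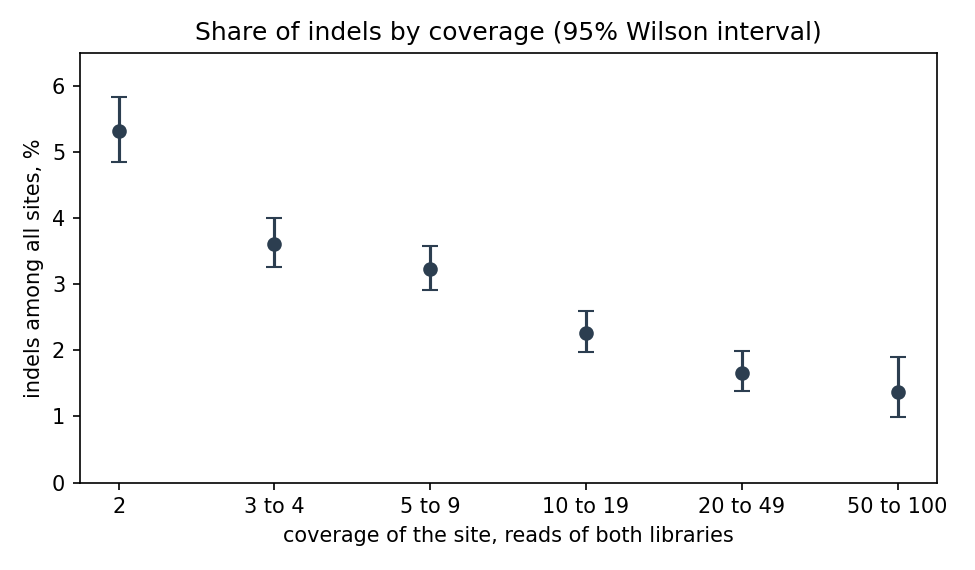
Indels as a percent of all variant sites (points, with 95% Wilson intervals) in 6 classes of coverage, from 2 reads to 50 to 100 reads. The points fall from 5.32% to 1.37%, and the intervals of the first and the last class do not overlap.

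The Frequency of a site is the percent of its reads that carry the alternative allele. No read carried the reference allele at 1327 of the 1481 indels (89.6%) and at 38584 of the 45520 SNP sites (84.8%). Most sites thus differed from the reference genome in every read over them. How many of these sites were read in both libraries is not known. At a coverage of 2 such a site is weakly determined, since the 95% Wilson interval of 2 alternative reads in 2 runs down to 34.2%. Among the sites with at least 10 reads, 286 of 346 indels (82.7%) and 13371 of 17828 SNP sites (75.0%) lacked the reference allele. The best covered examples were single added T bases at 94 of 94 reads in BGIBMGA005013 (Bm_scaf32, position 4128860) and in BGIBMGA008699 (Bm_scaf90, position 81187). In BGIBMGA004712 (Bm_scaf108, position 503893) 2 bases were added in 89 of 89 reads. None of these 3 lengths is a multiple of 3.

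Indels at which both alleles were read were fewer than SNP sites of that kind. Both alleles are taken as read where the Frequency lies from 20 to 80 and at least 10 reads cover the site. This held for 47 of 346 indels, or 13.6% (10.4 to 17.6), against a background of 3777 of 17828 SNP sites, or 21.2% (20.6 to 21.8). The odds for an indel were 0.587 times those for a SNP site (95% confidence interval 0.398 to 0.866, adjusted p = 0.0217, n = 346 indels, logistic regression with coverage as a term and errors clustered by scaffold). With a minimum coverage of 5 reads it was 0.774 (adjusted p = 0.0801, n = 703 indels). The difference lay with the single-base indels: against the SNP sites the odds ratio was 0.303 (0.177 to 0.518) for the 240 covered indels of 1 bp and 1.41 (0.869 to 2.29, adjusted p = 0.373, n = 106 indels, those with several alternatives included) with these left out, a split chosen after the data had been seen.

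By length, both alleles were read at 18 of 240 indels of 1 bp, or 7.50% (4.80 to 11.5), and at 29 of 99 longer ones, or 29.3% (21.2 to 38.9). The reference allele was absent from all reads at 217 of the 240 and at 64 of the 99. Among the longer ones, both alleles were read at 7 of 36 indels of 2 bp, 3 of 19 of 3 bp, 8 of 13 of 4 bp and 11 of 31 of 5 bp or more. The interval at 4 bp, 35.5% to 82.3%, overlaps those of 21.1% to 53.1% at 5 bp or more and of 5.52% to 37.6% at 3 bp, but not that of 9.75% to 35.0% at 2 bp. No test was made between these lengths. Single-base insertions were the lowest class, with 9 of 177 sites or 5.08% (2.70 to 9.38), against 9 of 63 single-base deletions or 14.3% (7.70 to 25.0).

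Indels of 3n bp, that is, a multiple of 3, had both alleles more often than others, at 11 of 37 sites (29.7%, 17.5 to 45.8) against 36 of 302 (11.9%, 8.74 to 16.1). The odds ratio was 3.14 (1.23 to 8.04, adjusted p = 0.0254, n = 339 indels, same regression). The difference was not seen without the single bases, which are never a multiple of 3. Among indels over 1 bp the shares were 11 of 37 and 18 of 62 (29.0%), with an odds ratio of 1.02 (0.378 to 2.74, adjusted p = 0.974, n = 99). Of the 11 sites, 3 are those of BGIBMGA000388, and without that gene the odds ratio was 2.27 (0.966 to 5.35, adjusted p = 0.0601, n = 34 and n = 301). With a minimum coverage of 5 reads it was 1.22 (adjusted p = 0.645, n = 80 and n = 610).

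Insertions had both alleles less often than deletions, at 26 of 227 sites (11.5%, 7.94 to 16.3) against 21 of 112 (18.8%, 12.6 to 27.0), with an odds ratio of 0.565 (0.341 to 0.936, adjusted p = 0.0266, n = 339 indels, same regression). The adjusted p-value was 0.0902 with errors clustered by gene (n = 339) and 0.0545 with a Frequency of 30 to 70 (n = 339). Among indels over 1 bp the direction turned, with 17 of 50 insertions and 12 of 49 deletions and an odds ratio of 1.57 (0.730 to 3.38, adjusted p = 0.373, n = 99).

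**Figure D3:**
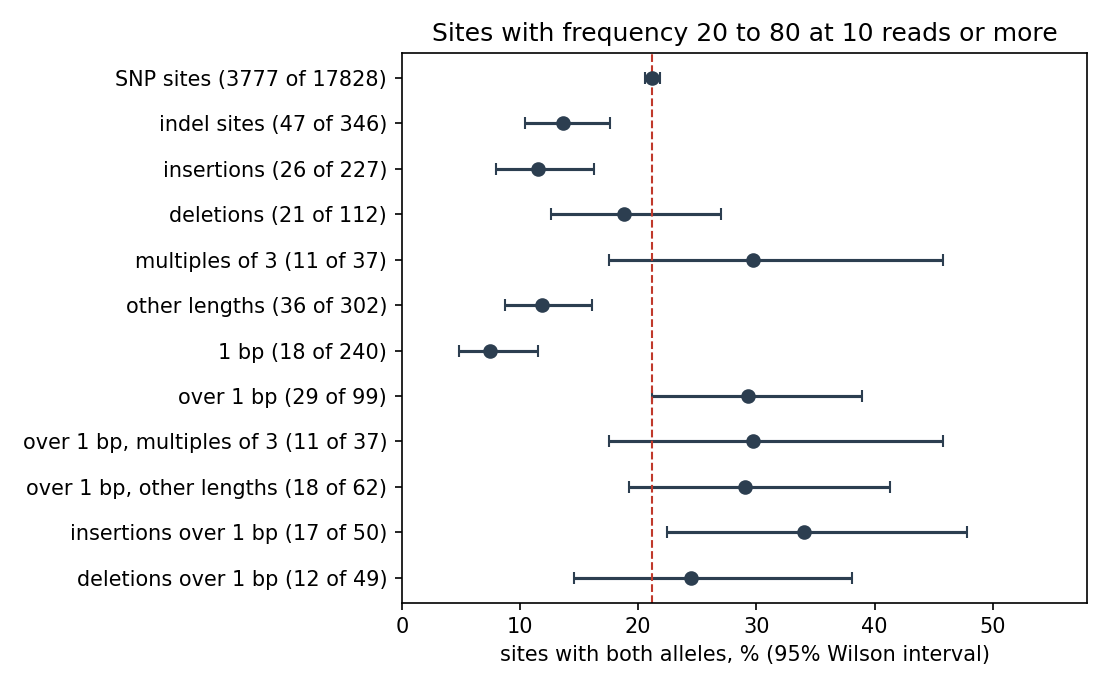
Percent of sites with both alleles, at a Frequency of 20 to 80 and at least 10 reads, by class of site (points, with 95% Wilson intervals; the counts stand beside the names and the dashed line marks the SNP sites). Indels of 1 bp lie at 7.50% and longer ones at 29.3%, on either side of the SNP sites at 21.2%.

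The 47 indels with both alleles lie in 37 genes on 25 scaffolds and were covered by 10 to 71 reads, with a median of 19. Bm_scaf5 held 6 of them among its 10 covered indels. The alternative allele was the rarer one at 34 of the 47 sites (72.3%), and at 59.7% of the SNP sites with both alleles, with median Frequencies of 37.5 and 43.8. Just inside the limits were BGIBMGA007726 and BGIBMGA000996, each with 2 of 10 reads, BGIBMGA006222 with 5 of 25 and BGIBMGA011342 with 8 of 10. Just outside were BGIBMGA013139 and BGIBMGA013884, each with 2 of 11 reads, and BGIBMGA005013 with 26 of 31 reads at position 4130590. The intervals of single sites are wide, from 5.14% to 47.7% for 2 of 11 reads, so sites near the limits could stand on either side.

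Of the 10 best covered indels with both alleles and a length that is no multiple of 3, the following 4 are shown because a change of this kind would shift the frame if it lay in a coding exon.
BGIBMGA005963 reference: caA
BGIBMGA005963 alternative: ca
BGIBMGA006214 reference: taaac
BGIBMGA006214 alternative: taaacAAAC
BGIBMGA001585 reference: ttcacgtCACGTCACGT
BGIBMGA001585 alternative: ttcacgt
BGIBMGA010496 reference: atttt
BGIBMGA010496 alternative: attttTTTT
In BGIBMGA005963 (Bm_scaf5, position 6651505) 15 of 71 reads lacked an A, or 21.1% (13.2 to 32.0). A second deletion in the same gene at position 6651672 was carried by 8 of 23 reads. In BGIBMGA006214 (Bm_scaf5, position 8134328) 14 of 63 reads held a second AAAC. In BGIBMGA001585, annotated with nucleotide binding (Bm_scaf7, position 6891719), 15 of 38 reads lacked 2 units of 5 bp. In BGIBMGA010496 (Bm_scaf6, position 155473) 16 of 32 reads held 4 further T bases. The other 6 lay in BGIBMGA002604 (10 of 34 reads), BGIBMGA012007 (12 of 29), BGIBMGA007950 (21 of 27), BGIBMGA008981 (19 of 27), BGIBMGA006048 (13 of 26) and BGIBMGA011501 (6 of 25).

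Indels with both alleles lay in genes whose SNP sites also had both. Of the 275 genes with a covered indel of 1 alternative allele, 62 held no covered SNP site and are left out here. Both alleles were read at 406 of 603 SNP sites (67.3%) in the 32 genes with such an indel, and at 216 of 2014 (10.7%) in the 181 genes whose covered indels all lay outside the limits. At least 1 SNP site with both alleles was found in 27 of the 32 genes and in 43 of the 181. The median share per gene was 76.4% and 0.00%. In 5 of the 32 genes, BGIBMGA002604, BGIBMGA005944, BGIBMGA007961, BGIBMGA008981 and BGIBMGA011587, no covered SNP site had both alleles. Sites of a gene share their reads and their haplotypes, so these shares are a description and carry no test.

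**Figure D4:**
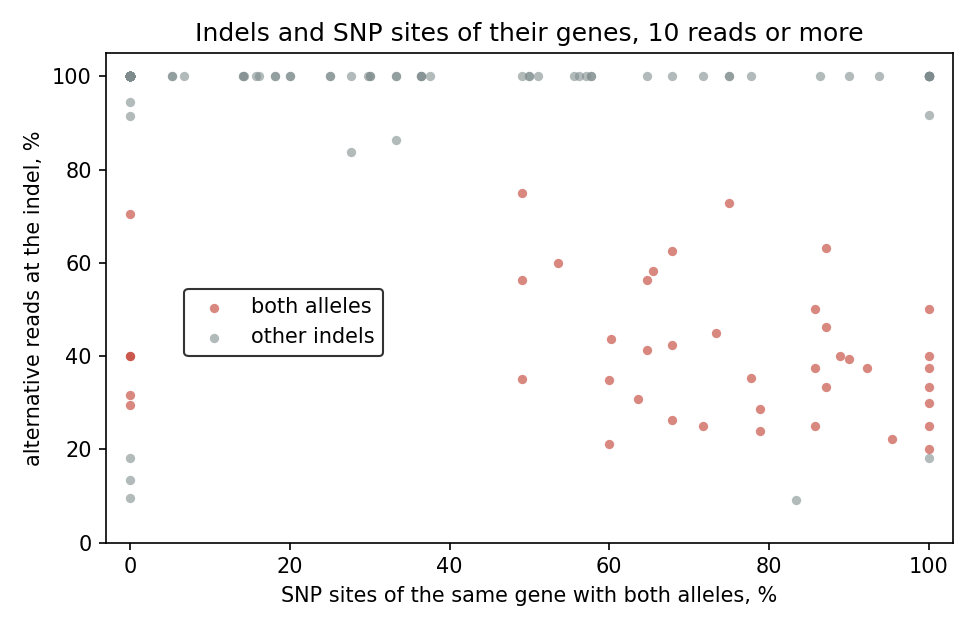
Percent of alternative reads at each covered indel (vertical axis) against the percent of covered SNP sites of the same gene that have both alleles (horizontal axis), with the 42 indels that have both alleles in red. Apart from the points at 0, the red points lie in the right part of the plot, while the row at 100 on the vertical axis runs over the whole width.

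Indels were listed in 1052 of the 6641 genes with any variant site (15.8%) and on 179 of 312 scaffolds. A single indel was listed in 792 genes, 2 in 170 and 3 or more in 90, and 143 of the 1052 genes held no SNP site. The median distance to the nearest SNP site was 116 bp, and 515 indels (34.8%) had one within 50 bp. Indels lay a median of 1254 bp from the nearer end of their gene and SNP sites 1119 bp, and 30.2% of indels and 32.8% of SNP sites lay within 500 bp of an end.

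Of the 13 genes with at least 6 indels, 12 are named. BGIBMGA001935, annotated with calcium ion binding and the dystrophin-associated glycoprotein complex, which links the cytoskeleton to the membrane, held 8 indels over a span of 10579 bp. Of these, 4 were insertions, and all 8, covered by 2 to 16 reads, lacked the reference allele. BGIBMGA001129, annotated with transcription factor activity and with glucosylceramidase activity, held 8 over 32663 bp. BGIBMGA004547 held 8 over 86474 bp. None of the 37 covered SNP sites of BGIBMGA001935 and of the 28 of BGIBMGA001129 had both alleles, against 4 of 22 in BGIBMGA004547. BGIBMGA012007, BGIBMGA013531 and BGIBMGA014226 held 7 indels each. In BGIBMGA012007 33 of the 51 covered SNP sites had both alleles, as had the indels at positions 51205 and 51769 of Bm_scaf141, while another at 53315 was read in both forms at a coverage of only 6. BGIBMGA000667, annotated with hormone activity in the extracellular region, held 6 indels over 8443 bp, none of them a multiple of 3, and BGIBMGA001548, annotated with protein tyrosine kinase activity, also held 6. BGIBMGA005700, BGIBMGA006774, BGIBMGA009409 and BGIBMGA010900 held 6 indels as well. In these 4, as in BGIBMGA001935, no indel had a read of the reference allele, though the least covered indel of each gene had only 2 to 5 reads.

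The longest indels were covered by 2 to 14 reads. The insertion of 30 bp lay in BGIBMGA005884 (Bm_scaf67, position 1264191) and was carried by all 9 reads, and the deletion of 30 bp lay in BGIBMGA010654 (Bm_scaf84, position 378936) and was carried by all 3. BGIBMGA006796 held both an insertion and a deletion of 22 bp, 36 bp apart, so that the 2 changes cancel in length. They are printed because of this.
BGIBMGA006796 insertion, reference: g
BGIBMGA006796 insertion, alternative: gCCCGATGATATCAATACCATCT
BGIBMGA006796 deletion, reference: tATCAAAGCAAAGGGAATCAAAG
BGIBMGA006796 deletion, alternative: t
All 14 reads carried the insertion (Bm_scaf253, position 17367) and all 11 the deletion (position 17403). Insertions of 23 and 18 bp lay in BGIBMGA004674 (2 of 2 reads), BGIBMGA004758 (10 of 10) and BGIBMGA014157 (5 of 5). Deletions of 25, 22 and 20 bp lay in BGIBMGA012008 (4 of 6 reads), BGIBMGA006510 (4 of 4) and BGIBMGA005700 (5 of 5). Among these long indels only that of BGIBMGA012008 had reads of both alleles.

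Neighbouring indels of a gene were never closer than 15 bp. In 32 pairs they lay within 50 bp of each other, and in 31 of these pairs neither length was a multiple of 3. The net length of the pair was a multiple of 3 in 10 of the 31 and 0 in 5. No count expected by chance was worked out, so these numbers are a description only. Where a site was read in both forms, it is not known whether the same allele carries both indels. The pairs are not all separate. In BGIBMGA007239 the same deletion, covered by 3 reads, counts in a pair with the added base on either side. Besides the pair of BGIBMGA006796, a single base was removed and another added 23 bp further in BGIBMGA014407, with 9 of 9 and 5 of 5 reads. In BGIBMGA009370, by contrast, single bases were added at both of 2 sites 38 bp apart, with 53 of 53 and 66 of 66 reads, which gives a net change of 2 bp.

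Cuticle protein genes encode structural proteins that form the cuticle of the epidermis together with chitin. Of the 80 cuticle protein genes with a variant site, 15 held an indel (18.8%, against the 15.8% of all genes with a site), 29 indels in all. Of the 27 with 1 alternative allele, 15 were longer than 1 bp (55.6%, 37.3 to 72.4, against 30.7% of all indels), and 9 of these 15 were a multiple of 3 (60.0%, 35.7 to 80.2, against 38.0%). No test was made of these shares. At least 10 reads covered 12 of the 29 indels, of which 6 had both alleles, and these 6 lay in only 2 genes, BGIBMGA000388 and BGIBMGA010500.

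In BGIBMGA000388 (Bm_scaf18, 1404285 to 1419174) the 3 changes of 9 bp were carried by 5 of 19 reads (26.3%, 11.8 to 48.8), 11 of 26 (42.3%, 25.5 to 61.1) and 15 of 24 (62.5%, 42.7 to 78.8). The intervals of neighbouring values overlap. The fourth indel, a C added at position 1418325, was carried by all 74 reads. Of the 35 SNP sites of the gene 28 were covered by at least 10 reads, and 19 of these had both alleles, with a median Frequency of 39.2. The first 11 of the SNP sites, up to 6487 bp from the start of the gene, lacked the reference base. The SNP sites with both alleles lay from 10846 to 12386 bp, while those at 11530 and 11692 bp lacked the reference base. The 3 indels of 9 bp lay at 11473, 11626 and 12412 bp. The indel at 12412 bp had 24 reads against 81 at the SNP site at 12386 bp. At 11626 bp it was 26 against 45 at 11618 bp, and at 11473 bp 19 against 21 at 11486 bp. The reason was not tested, so these Frequencies may not be allele shares.

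**Figure D5:**
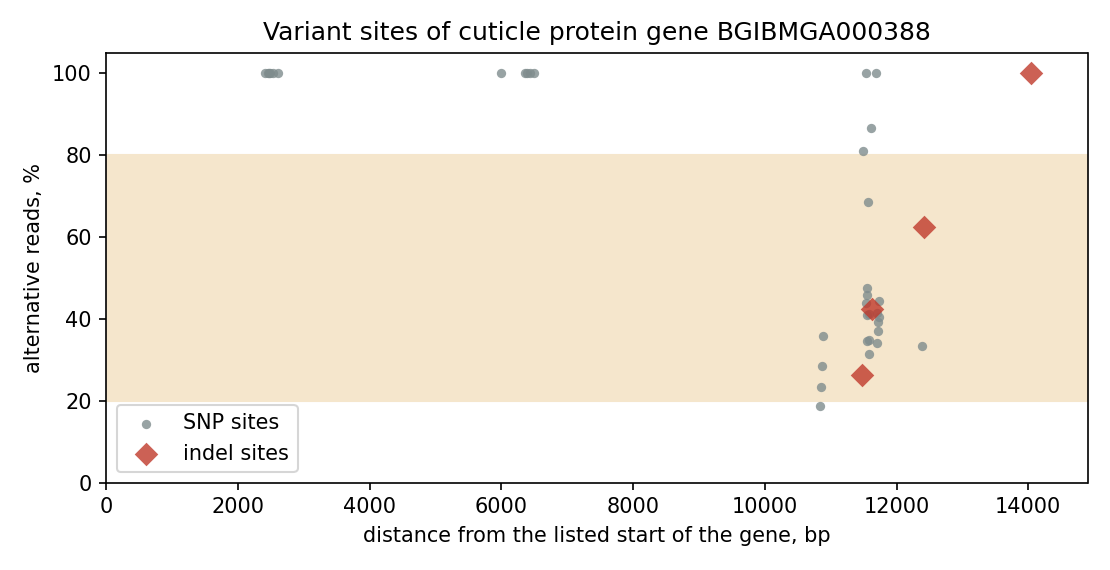
Percent of alternative reads at the 4 indels (diamonds) and 35 SNP sites (dots) of BGIBMGA000388 by their distance in bp from the listed start of the gene, with the limits of 20 and 80 shaded. The 3 indels of 9 bp lie between 11473 and 12412 bp at 26.3% to 62.5%, and the indel of 1 bp lies at 14040 bp and 100%.

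In BGIBMGA010500, an insect cuticle protein gene with a quinonprotein alcohol dehydrogenase-like part (Bm_scaf6, 268812 to 278566), 3 deletions of 2, 1 and 2 bp had both alleles, carried by 5 of 15, 12 of 19 and 6 of 13 reads. None is a multiple of 3. The first 2 lie 30 bp apart and their lengths add up to 3 bp, but whether the same allele carries both is not known. Of its 31 covered SNP sites 27 had both alleles. BGIBMGA010654, listed with the cuticle proteins under a casein description, held 5 indels, all without a reference read, with a net loss of 51 bp. They were covered by 2 to 17 reads, and the deletion of 30 bp among them by only 3. BGIBMGA009990 lacked 3 bp in 8 of 8 reads, and BGIBMGA000438 lacked 18 bp in 4 of 4.

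The paper follows genes of several pigment and molting pathways. No indel was listed in any of the 7 melanin, 4 ommochrome, 2 pteridine, 3 nuclear receptor and 6 chitin genes that hold a variant site. Among all genes with a site the share with an indel was 15.8%. These counts say only that none was listed at the depth of these libraries. No listed site had more than 100 reads, and the sources do not say whether deeper sites were left out. Among the 12 genes the paper chose for a strong difference between the strains, 8 held a variant site and 3 of these an indel (37.5%, beside 15.8% of all genes with a site). Mucin (BGIBMGA013949), which shields epithelial surfaces, held an added G at position 272506 of Bm_scaf29 in 38 of 38 reads (90.8% to 100%). Nesprin-1 (BGIBMGA010472), which ties the nucleus to the actin cytoskeleton, held an added A in 25 of 25 reads and an added G in 2 of 2. In LCP-12, a larval cuticle protein, the added G was carried by 6 of 7 reads. Ribosomal protein L3 (BGIBMGA013567), a protein of the large ribosomal subunit, lacked 2 bp of an AT repeat in 2 of 3 reads at position 376005 of Bm_scaf130. None of these 5 lengths is a multiple of 3, and the reference allele was read only in LCP-12 and ribosomal protein L3. In the paper's sequencing data, mucin and nesprin-1 were far lower in q-lp than in the wildtype strain, and LCP-12 was far higher. Reads at the mucin and nesprin-1 sites may thus come mostly from the wildtype library, and those at LCP-12 from the q-lp library. An allele found in all reads of such a gene therefore need not be present in both strains, which was not tested.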

How the data were processed

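The epidermis of 932VR and q-lp was sequenced in 2 libraries, 1 per strain, and the reads were aligned by the authors to the SilkDB genome. Aligner and caller are not given in the sources used here. The authors deposited, for each site, the coverage (a count of reads) and the percent of those reads with the alternative allele (Frequency). Reads of each allele were computed from both. No column names a library, and the reads are taken to be those of both. One further line of the indel table, which holds no values, was not analysed here.

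Length, direction and repeat class were read from the spelled alleles; no genome was used, so the run lengths are those the alleles show. A repeat was full when the longer allele repeated without a mismatch and the shorter allele held at least 1 copy of the unit behind its first base. An allele with any mismatch counted as no repeat. Shares carry 95% Wilson intervals. The contrasts of the share with both alleles (indels and SNP sites, 3n and other lengths, insertions and deletions) were fitted by logistic regression with log2 coverage as a term and errors clustered by scaffold, with two-sided Wald tests and Benjamini-Hochberg adjustment for 3 contrasts at a threshold of 0.05 (statsmodels 0.14.6, pandas 2.3.3, Python 3.11.15). The regression was also run on simulated sites that shared an effect within a scaffold but none within a gene. The outcome is not given here and is no support for the p-values. Members, lists and contrasts were chosen with earlier results of these data known. Genes named are the genes with the most indels (up to 12), those of the 5 longest insertions and deletions, those of the 10 best covered indels with both alleles that are no multiple of 3, and those of the paper's lists, 15 cuticle protein genes among them. Others are examples chosen after their values were seen. Descriptions of genes are the paper's. Alternatives were another minimum coverage, Frequency window, clustering, coverage term and choice of sites. Those on single-base indels and on BGIBMGA000388 were chosen after seeing the data.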

Additional observations from a re-analysis of the deposited data

How the results depend on the processing

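No paired analysis was possible because each strain has 1 library and the tables join them. For indels against SNP sites the odds ratio lost the call at 0.774 (adjusted p = 0.0801, n = 703 indels) with a minimum coverage of 5 reads and turned to 1.41 (0.373) without the 1 bp indels. For 3n bp against other lengths the odds ratio lost the call at 1.22 (0.645) with a coverage of 5 reads, 1.02 (0.974) without the 1 bp indels, 1.04 (0.936) with a term for them and 2.27 (0.0601) without BGIBMGA000388. For insertions against deletions it did so at 0.505 (0.0545) with a Frequency of 30 to 70, 0.565 (0.0902) with errors clustered by gene and 0.800 (0.723) with a term for 1 bp indels, and it turned to 1.57 (0.373) without them. Every other alternative run for these 3 results kept the direction and the call. Leaving out indels closer than 10 bp changed nothing, as there were none. The settings without the 1 bp indels, with a term for them and without BGIBMGA000388 were chosen after seeing the data. The share of multiples of 3 moved to 38.0% without the 1 bp indels. A coverage of at least 10 reads left 346 indels, 227 insertions, 112 deletions and 279 genes, and a median coverage of 18 reads. With a median coverage of 4, most indels are too thinly read to tell whether a second allele is present.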
